A study of Mus musculus with 6 samples.

Results

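The 15 assays described here measure the 8 microRNAs (miRNAs) of the miR-200 and miR-183 clusters, out of 750 miRNA assays on a TaqMan OpenArray rodent panel. They were chosen by name: every assay for miR-200a, miR-200b, miR-200c, miR-141, miR-429, miR-182, miR-183 or miR-96 was kept, whatever its species prefix, strand or pool, 8 of them in pool A and 7 in pool B. The tissue was whole prefrontal cortex, dissected fresh, of 3 BTBR mice (labelled BTBR T+ Itpr3tf/J) and 3 wild-type C57BL/6J mice, all male, untreated and 5 months old. BTBR is an inbred strain studied for its low sociability, C57BL/6J is the control strain, and each mouse gave 1 sample. The labels give C57BL/6J as the strain background of all 6 samples, so the strains are told apart here by sample title and genotype label. The values are cycle thresholds, each the number of PCR cycles an assay needed to reach a set signal. A lower threshold stands for more RNA, 1 cycle is taken as 1 unit of log2, and 40 was read as undetermined. Each assay has 1 value per sample. In assay names # stands for the minor strand of the hairpin, and the letter in brackets after a name is the pool.

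The miR-200 family is known as a guardian of the epithelial state, in which it represses the transcription factors Zeb1 and Zeb2. In the nervous system it is best known from the olfactory epithelium, where it takes part in the formation of olfactory neurons. The miR-183 cluster is known from sensory cells such as photoreceptors, hair cells of the inner ear and olfactory neurons, and mutations of miR-96 cause hearing loss in humans and mice. Neither group is a defining miRNA group of cortical neurons, so joint readings of cluster mates in a cortical dissection raise the question of whether other tissue was taken with it.

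The mature strands are printed here because the clusters share seeds, the bases that pair with target RNAs, and because near-identical members have separate assays. All 8 matched RefSeq entries (mouse, GRCm38.p6), each is written from its 5′ end, and capitals mark the seed (bases 2 to 8).
mmu-miR-200b-3p: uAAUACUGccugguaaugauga
mmu-miR-200c-3p: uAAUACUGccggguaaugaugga
mmu-miR-429-3p: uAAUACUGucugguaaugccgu
mmu-miR-200a-3p: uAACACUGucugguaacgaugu
mmu-miR-141-3p: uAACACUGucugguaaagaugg
mmu-miR-183-5p: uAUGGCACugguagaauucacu
mmu-miR-96-5p: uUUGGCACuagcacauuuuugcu
mmu-miR-182-5p: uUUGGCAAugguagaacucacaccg
The seed of miR-200b, miR-200c and miR-429 is the same, and it differs by 1 base from the seed that miR-200a and miR-141 share. Over 22 bases compared without gaps, miR-200b and miR-200c differ at 2 positions, and so do miR-200a and miR-141. The 3 members of the miR-183 cluster have 3 different seeds, that of miR-96 being 1 base away from each of the others. Among the other mature mouse miRNAs of that RefSeq table, miR-1271-5p alone has a seed of this group, that of miR-96, and no assay on the panel matched its name.

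The genes form 3 genomic clusters, all on the minus strand. Mir200b, Mir200a and Mir429 lie within 1846 bases at chr4:156053905-156055750, an interval that overlaps the annotated long noncoding RNA gene Gm13648. Mir200c and Mir141 lie within 477 bases at chr6:124717914-124718390, where that annotation has no other gene. Mir183, Mir96 and Mir182 lie within 3820 bases at chr6:30165918-30169737, an interval that overlaps the long noncoding RNA gene Mirc35hg. Mates of a cluster are known to be cut from a shared primary transcript, so their assays are described together. Most of the assays carry the prefix hsa, for human, and the human sequences were not compared here.

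The 6 samples gave thresholds for 289 to 404 of the 750 assays: 358, 404 and 347 in BTBR and 305, 301 and 289 in C57BL/6J. BTBR replicate 2 had the most detected assays and the earliest global mean, the mean threshold over the 237 assays detected in all 6 samples (21.5 cycles, against 21.9 to 22.6 in the other samples). All 9 assays of a list of neuronal markers were detected in at least 1 sample. hsa-miR-128a (13.8 to 14.9 cycles) and hsa-miR-9# (13.5 to 14.1 cycles) were early in every sample. hsa-miR-138 was earlier still, at 11.6, 10.9 and 11.1 cycles in BTBR and 10.6, 10.8 and 9.6 in C57BL/6J. mmu-miR-137 read 17.8 to 20.1 cycles over the 6 samples. The remaining assays of the list were uneven. mmu-miR-138# read 12.1, 18.0 and 17.4 cycles in BTBR and 17.8, 7.8 and 6.4 in C57BL/6J. Readings under 10 were treated as undetermined, all of these in C57BL/6J for the 2 miR-138 assays. mmu-miR-124a read 20.8, 19.8 and 23.3 cycles in BTBR and 31.4, 24.8 and 24.4 in C57BL/6J, earliest in BTBR replicate 2 and latest in C57BL/6J replicate 1. mmu-miR-153 read 28.7, 29.4 and 28.8 cycles in BTBR and 40, 26.9 and 40 in C57BL/6J. The neuronal hsa-miR-124# was undetermined in all 3 BTBR samples and read 22.7, 21.7 and 13.7 cycles in C57BL/6J. The assay hsa-miR-9, for the other strand of that abundant brain hairpin, read 16.8, 13.9 and 40 cycles in BTBR and 40 in all 3 C57BL/6J samples.

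Transcripts of these clusters were read in all 6 cortices, but the level was uneven from mouse to mouse. Of the 15 assays, 12 were detected in at least 1 sample (80% of them, against 61.6% of the panel). The 3 never detected were hsa-miR-200c (B), hsa-miR-200c# and mmu-miR-141#. By sample, 7, 12 and 6 assays were detected in the BTBR mice and 5, 7 and 6 in the C57BL/6J mice, so BTBR replicate 2 gave all 12 and the other 5 samples overlapped. Detected in BTBR samples only were 5 of the 15 assays, where 15.2% of the panel had that pattern, and 0 were detected in C57BL/6J samples only, where 3.73% of the panel did. Without BTBR replicate 2, the BTBR-only count was 3 of 15, beside 12.7% of the panel. In bulk tissue, fewer cells of a type and less RNA per cell cannot be told apart.

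**Figure D1:**
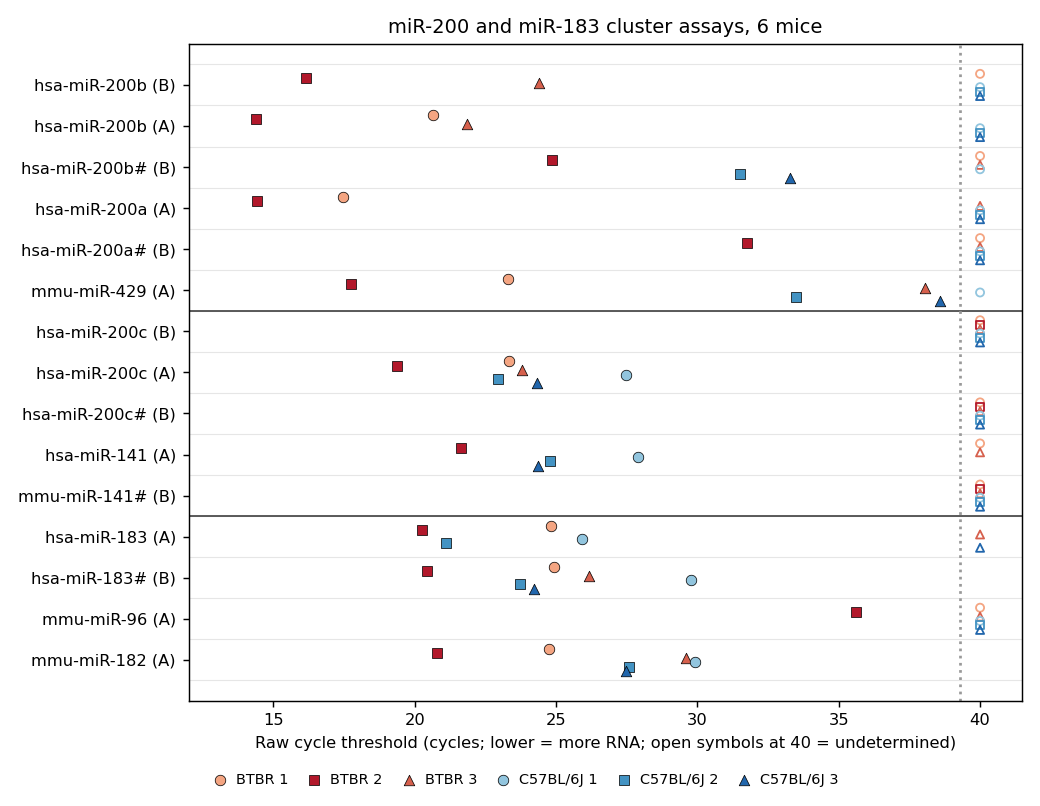
Raw cycle threshold (x axis, cycles) of each of the 15 assays (rows, pool in brackets, lines between the 3 genomic clusters) in each mouse, red for BTBR and blue for C57BL/6J, with open symbols at 40 for undetermined readings. The square of BTBR replicate 2 is leftmost in each of the 12 rows that hold a detected value.

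In the chromosome 4 cluster, the early readings belonged to BTBR mice. The assay hsa-miR-200b (A) read 20.7, 14.4 and 21.9 cycles in BTBR, against 40 in all 3 C57BL/6J samples. It was the 1 assay of the 15 that every BTBR sample and no C57BL/6J sample detected, a pattern of 3.73% of the panel. Its namesake hsa-miR-200b (B) read 40, 16.2 and 24.4 cycles in BTBR and 40 in all C57BL/6J samples, so the 2 assays gave different answers for BTBR replicate 1 and the same order for the other 2 BTBR mice. For miR-200a, the assay hsa-miR-200a read 17.5, 14.4 and 40 cycles in BTBR and 40 in all C57BL/6J samples, which puts BTBR replicate 3 with C57BL/6J. That is the pattern of hsa-miR-9 above, and 34 assays of the panel were detected in BTBR replicates 1 and 2 only.

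The third mate of that cluster was read in both strains. mmu-miR-429 read 23.3, 17.7 and 38.0 cycles in BTBR, against 40, 33.5 and 38.6 in C57BL/6J. BTBR replicate 3 lay within the range of C57BL/6J, at thresholds so late that they are close to undetermined, while BTBR replicates 1 and 2 lay well before every C57BL/6J reading. Of the minor strands, hsa-miR-200b# read 40, 24.8 and 40 cycles in BTBR and 40, 31.5 and 33.3 in C57BL/6J, and hsa-miR-200a# was detected in BTBR replicate 2 alone (31.8 cycles). A threshold under 20 cycles in some sample with an undetermined one in another was found for 4 of the 5 cluster assays that reached 20 cycles (miR-200a, both miR-200b assays and miR-429). Over the panel it was found for 66 of 162 such assays (40.7%).

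The chromosome 6 pair of miR-200c and miR-141 was detected in both strains. hsa-miR-200c (A), a member with a value in every sample, read 23.3, 19.4 and 23.8 cycles in BTBR and 27.5, 23.0 and 24.3 in C57BL/6J. The strains overlapped, with C57BL/6J replicate 2 ahead of BTBR replicates 1 and 3. Its mate hsa-miR-141 read 40, 21.6 and 40 cycles in BTBR, against 27.9, 24.8 and 24.4 in C57BL/6J: the earliest reading and both undetermined ones were BTBR. In BTBR replicates 1 and 3, then, miR-200c was detected and miR-141 was not, although the mates are cut from 1 transcript.

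A second miR-200c assay, hsa-miR-200c (B), was undetermined in all 6 samples. Among the 37 miRNAs with an assay of the same name in each pool, 13 had 1 assay that was never detected while the other was, and for 25 the detection calls differed in at least 1 sample. Both pairs among the cluster assays, those of miR-200b and miR-200c, were of that kind. The sources used here do not say how same-named assays differ.

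In the miR-183 cluster, hsa-miR-183 read 24.8, 20.2 and 40 cycles in BTBR and 25.9, 21.1 and 40 in C57BL/6J, nearly the same set of values in both strains. Its other strand, hsa-miR-183#, read 24.9, 20.4 and 26.2 cycles in BTBR, against 29.8, 23.7 and 24.2 in C57BL/6J. The strains overlapped. The samples in which hsa-miR-183 was undetermined, replicate 3 of each strain, were detected for the minor strand, at 26.2 cycles in BTBR, the latest of that strain, and 24.2 in C57BL/6J. mmu-miR-182 read 24.7, 20.8 and 29.6 cycles in BTBR and 29.9, 27.6 and 27.5 in C57BL/6J. Here BTBR replicates 1 and 2 preceded all C57BL/6J samples and BTBR replicate 3 lay among them. The assay of miR-96, the member linked to hearing loss, was detected once, at 35.6 cycles in BTBR replicate 2.

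Cluster mates had their earliest thresholds in the same mouse, BTBR replicate 2. Of the 12 detected cluster assays, hsa-miR-200a# and mmu-miR-96 were detected in that mouse alone, so their earliest sample was fixed. The other 10 were detected in at least 2 samples, hsa-miR-200a and hsa-miR-200b (B) only through that mouse. These 10 are not independent readings, since several share a hairpin or a cluster. Among the 10 detected in at least 2 samples, BTBR replicate 2 had the earliest raw threshold in 10, where it was earliest in 37.0% of the 413 panel assays so detected. Since its whole panel ran early, thresholds were also centred on the global mean of each sample. It was then earliest in 22.8% of those panel assays and still in 10 of 10 cluster assays, although for hsa-miR-183 it led C57BL/6J replicate 2 by 0.10 cycles only. Over these 10 cluster assays, BTBR replicate 2 led the next sample by a median of 3.76 raw cycles, from 0.87 for hsa-miR-183 to 8.24 for hsa-miR-200b (B). Its median lead over the 153 such panel assays in which it was earliest was 0.84 cycles.

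**Figure D2:**
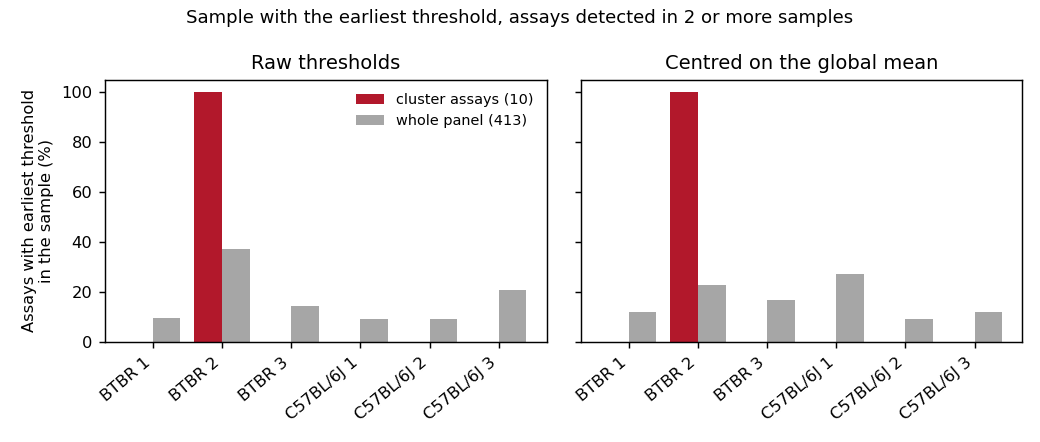
Share of assays (y axis, %) whose earliest threshold fell in each sample (x axis), for the 10 cluster assays in red and the 413 panel assays in grey that were detected in at least 2 samples, on raw thresholds (left) and after centring on the global mean (right). The 10 cluster assays fall in BTBR replicate 2, which holds 37.0% and 22.8% of the panel assays.

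With BTBR replicate 2 set aside, 10 cluster assays still had a detected value. The earliest raw threshold was in BTBR replicate 1 for 4 of them (27.5% of the 443 panel assays then detected), in BTBR replicate 3 for 1 (23.7%), in C57BL/6J replicate 2 for 4 (12.4%), in C57BL/6J replicate 3 for 1 (26.0%) and in C57BL/6J replicate 1 for 0 (10.4%). For hsa-miR-200a and hsa-miR-200b (B) 1 detected sample was left, so that sample was fixed. No further mouse stood first throughout.

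The 3 assays with values in all 6 samples, hsa-miR-200c (A), hsa-miR-183# and mmu-miR-182, come from 2 separate loci on chromosome 6. Relative to the global mean, hsa-miR-200c stood at 1.34, -2.08 and 1.66 cycles in BTBR and 4.85, 0.72 and 2.42 in C57BL/6J. hsa-miR-183# stood at 2.96, -1.01 and 4.06 cycles in BTBR, against 7.16, 1.5 and 2.34 in C57BL/6J. For mmu-miR-182 the values were 2.76, -0.66 and 7.47 cycles in BTBR and 7.31, 5.35 and 5.57 in C57BL/6J. BTBR replicate 2 was first for all 3, and C57BL/6J replicate 1 was last for 2 of them and next to last for mmu-miR-182.

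**Figure D3:**
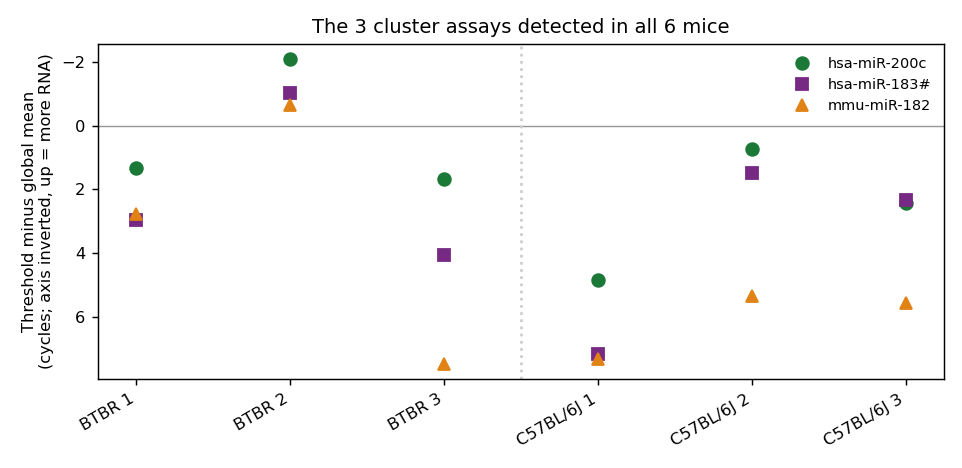
Threshold minus the global mean of the sample (y axis, cycles, inverted so that up is more RNA) for the 3 cluster assays detected in all 6 mice (x axis). BTBR replicate 2 is highest for each assay, and C57BL/6J replicate 1 is lowest for hsa-miR-200c and hsa-miR-183#.

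These assays varied among mice more than most of the panel. Raw thresholds of hsa-miR-183# spanned 9.33 cycles, those of mmu-miR-182 9.13 and those of hsa-miR-200c 8.10, the 11th, 12th and 15th widest of 237 assays whose median span was 1.81. After centring, the spans were 8.17, 8.12 and 6.93 cycles against a median of 2.04. The spread within strains was also wide: the SD of the raw thresholds of hsa-miR-200c was 2.42 cycles in BTBR and 2.32 in C57BL/6J. It was 3.02 and 3.36 for hsa-miR-183#, and 4.40 and 1.39 for mmu-miR-182, where the panel medians were 0.52 in both strains.

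Profiles were compared by the root mean square difference between 2 assays over the 6 samples, each centred on the global mean and then on its own mean, as a description. The assay nearest to hsa-miR-200c in the panel was its fellow member hsa-miR-183# (0.87 cycles), from a different locus. Next came mmu-miR-340-5p (1.12), MMU-MIR-2138 (1.33) and mmu-miR-337 (1.35), where the median over the 234 assays outside the clusters was 2.39. Nearest to hsa-miR-183# outside the clusters were mmu-miR-340-5p (1.40), hsa-miR-431 (1.71) and hsa-miR-365 (1.76). For mmu-miR-182 they were hsa-miR-431 (1.03), mmu-miR-337 (1.21) and HSA-MIR-421 (1.43), all nearer than either fellow member (1.61 and 1.71). The raw thresholds of mmu-miR-340-5p were 22.8, 21.6 and 24.1 cycles in BTBR and 29.4, 25.3 and 24.4 in C57BL/6J, again earliest in BTBR replicate 2 and latest in C57BL/6J replicate 1.

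Whether the strains differ was tested on the normalized thresholds of the authors, multiplied by -1 to give a log2 scale, with 40 as missing. Their table holds 6 of the 15 assays (40.8% of the panel is in it), and 4 had the 2 values per strain that the test asked for. Of these, 0 passed an adjusted p of 0.05 in limma and 1 had an unadjusted p under 0.05, where 36.8% of the 231 assays tested passed (3 higher in BTBR, 1.3%, and 82 lower, 35.5%). The median change over the panel was -1.13, and that of the 4 cluster assays was 0.69. With the same values centred on the median of each sample, the panel median was 0.05 and 2 assays passed, 1 in each direction.

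After normalization by the authors, mmu-miR-182 stood at 25.3, 22.3 and 40 cycles in BTBR, against 28.8, 26.8 and 26.2 in C57BL/6J. Its log2 change was 3.42 ± 1.23 (standard error; limma adjusted p = 0.0807), or 4.71 ± 1.17 with sample medians (limma adjusted p = 0.0948), and rests on 2 BTBR values. The raw table does hold a reading for BTBR replicate 3, 29.6 cycles, at the level of C57BL/6J replicate 1. With such late readings kept, a setting added once the data had been seen, the log2 change was -0.09 ± 3.16 (standard error; limma adjusted p = 0.982).

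For hsa-miR-200c, normalized thresholds averaged 22.9 ± 2.32 cycles in BTBR and 24.1 ± 2.20 in C57BL/6J (SD, n = 3 each). Its change was 1.25 ± 1.54 on the log2 scale (standard error; limma adjusted p = 0.533), and -0.08 without BTBR replicate 2. hsa-miR-183# averaged 24.9 ± 2.81 cycles in BTBR and 25.0 ± 3.06 in C57BL/6J, a change of 0.13 ± 1.99 on the log2 scale (standard error; limma adjusted p = 0.956), which was -1.43 without BTBR replicate 2 and -1.64 without C57BL/6J replicate 1. hsa-miR-183, with 2 values in each strain, was at -0.78 ± 2.17 on the log2 scale (standard error; limma adjusted p = 0.784). All 4 standard errors exceed 1 cycle, so differences of that size were not detectable in this fit.

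On raw thresholds centred on the global mean, 5 cluster assays could be tested. Of these, 0 passed in limma and 0 had an unadjusted p under 0.05, where 0.0% of the 270 assays tested passed and 71 had an unadjusted p under 0.05. All 5 changes were positive on this scale, with a median of 2.36 against -0.40 over the panel, but that of hsa-miR-183 was -0.07 with the global median and -0.20 with the endogenous control spots. The log2 changes were 2.36 for hsa-miR-200c (standard error 1.42), 1.67 for hsa-miR-183# (1.94), 0.28 for hsa-miR-183 (2.16) and 2.89 for mmu-miR-182 (2.02). mmu-miR-429 had 9.47, with a standard error of 6.13 from BTBR values between -3.72 and 15.92 cycles. Without BTBR replicate 2 these changes were 1.17 for hsa-miR-200c, 0.16 for hsa-miR-183#, 0.96 for mmu-miR-182 and 5.35 for mmu-miR-429, and hsa-miR-183 could not be tested.

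BTBR replicate 3 had the opposite weight. Without it, mmu-miR-182 (log2 change 5.02, limma adjusted p = 0.0491) and mmu-miR-429 (15.18, limma adjusted p = 0.0377) were higher in BTBR on the global mean scale, where 57 of 258 assays (22.1%) then passed. hsa-miR-200c, hsa-miR-183# and hsa-miR-183 did not pass (limma adjusted p = 0.215, 0.381 and 0.942). The value of mmu-miR-429 rests on BTBR replicates 1 and 2 and C57BL/6J replicates 2 and 3. Those C57BL/6J readings, 33.5 and 38.6 raw cycles, were late, and the 40 of C57BL/6J replicate 1 was missing in the fit. Among the 3 assays with 6 raw values, 0 had strains that did not overlap, a pattern of 32.5% of the 237 panel assays with 6 values.

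**Figure D4:**
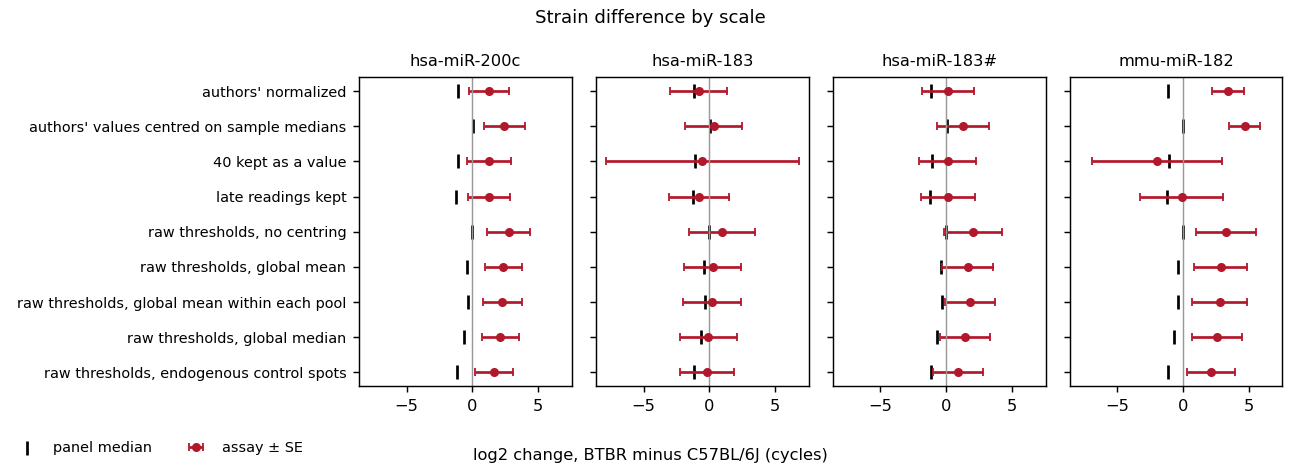
Log2 change, BTBR minus C57BL/6J (x axis, cycles), of 4 cluster assays with its standard error (bars) under 9 treatments of the thresholds (rows), and the median change over all assays tested (black ticks). Only mmu-miR-182 in the upper 2 rows, the authors' values with 40 as missing, lies more than 2 standard errors from 0, and its BTBR mean is there of 2 mice.

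The fold table of the authors keeps 40 as a value in its means, and 4 of its 6 entries for the clusters hold such values. The other 2 do not: the authors' deposited table gives a ratio of BTBR to C57BL/6J of 2.38 for hsa-miR-200c (adjusted p-value 0.617) and of 1.09 for hsa-miR-183# (adjusted p-value 0.964). For hsa-miR-200b (A), the authors' deposited table gives a mean of 19.1 cycles in BTBR and 40 in C57BL/6J, and a ratio of 1898302 with an adjusted p-value of 0.0682. That ratio stands for detection in 3 mice against none, not for a measured level in C57BL/6J. For hsa-miR-141 the authors' deposited table gives a value 702-fold lower in BTBR (adjusted p-value 0.361), from a BTBR mean of 34.3 cycles that holds 2 values of 40. The 1 BTBR mouse in which miR-141 was detected had the earliest threshold of all 6. For mmu-miR-182 the authors' deposited table gives a value 3.92-fold lower in BTBR (adjusted p-value 0.793), the opposite sign to the change of 3.42 above, through the value of 40 for BTBR replicate 3. In limma with 40 kept as a value, hsa-miR-200b (A) passed (log2 change 20.86, limma adjusted p = 0.00233) where 31.4% of the 306 assays tested did. All its C57BL/6J values are the placeholder 40, so neither this change nor its p-value rests on a measured level or spread in that strain. In the same fit hsa-miR-141 was at -9.46 (limma adjusted p = 0.217).

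Other tissue in the dissection was examined with miRNAs that mark it. The level of a list was summed as the level of each assay relative to the global mean of the sample, with undetermined cells as 0, which takes all assays as equally efficient. The cluster assays summed to 26.8, 329 and 1.79 in BTBR and 0.176, 3.32 and 0.587 in C57BL/6J, a sum that miR-200a and miR-200b dominate where they were read. In the choroid plexus and ciliated cell list, 7 of 11 assays were detected at all, and 6, 7 and 6 of them in BTBR against 3, 4 and 4 in C57BL/6J. Detection was also higher in BTBR over the whole panel, at 47.7, 53.9 and 46.3% against 40.7, 40.1 and 38.5% in C57BL/6J. The summed level of the list was 24.9, 29.8 and 67.7 in BTBR and 59.4, 21.4 and 28.8 in C57BL/6J. It was mostly that of hsa-miR-204 and, in BTBR, of mmu-miR-34b-3p. On that sum, BTBR replicate 2 lay within the range of the other mice. BTBR replicate 2 alone detected all 7 of the detected assays. On raw thresholds it was earliest in 3 of the 7 (42.9%, against 37.2% of the detected panel assays).

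In the choroid plexus and ciliated cell list, mmu-miR-211 was 1 of 4 assays undetermined in all 6 samples. hsa-miR-204, which it closely resembles, read 17.8, 17.1 and 16.6 cycles in BTBR and 16.8, 17.9 and 17.2 in C57BL/6J. Its other strand, rno-miR-204#, read 23.1, 20.1 and 22.3 cycles in BTBR and 20.8, 22.2 and 20.7 in C57BL/6J, so neither strand parted the strains. Markers of ciliated cells were uneven: mmu-miR-34b-3p read 19.3, 18.8 and 17.8 cycles in BTBR and 40 in all C57BL/6J samples, earliest in BTBR replicate 3. hsa-miR-449 read 29.7, 26.2 and 32.6 cycles in BTBR and 40, 31.0 and 29.9 in C57BL/6J, earliest in BTBR replicate 2. Its relative mmu-miR-449b (B) read 32.4, 30.5 and 31.3 cycles in BTBR and 35.1, 34.5 and 26.8 in C57BL/6J, earliest in C57BL/6J replicate 3. hsa-miR-34c read 31.2, 28.7 and 40 cycles in BTBR and 40 throughout C57BL/6J. Its other strand, mmu-miR-34c#, read 40, 22.0 and 21.5 cycles in BTBR and 40 throughout C57BL/6J, so the strands differed on BTBR replicates 1 and 3. The part of ciliated or choroid cells in the cluster readings was not tested.

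Among other epithelial and neuroendocrine miRNAs, 6 of 9 assays were detected in at least 1 sample, and their summed level was 29.7, 35.0 and 40.1 in BTBR and 48.5, 47.1 and 44.6 in C57BL/6J. The sums of the strains did not overlap, and BTBR replicate 2 lay in the middle of its strain. Raw thresholds of the strains did not overlap in 32.5% of the 237 panel assays with 6 values. The sum was mostly that of rno-miR-7a# and rno-miR-7#, which neurons also express. Raw thresholds of both overlapped, with rno-miR-7a# at 18.0, 17.5 and 17.8 cycles in BTBR and 17.8, 17.4 and 17.2 in C57BL/6J. The skin and epithelial marker hsa-miR-205 was undetermined in all 6 samples, but other members of the list were read in every sample. hsa-miR-203 read 21.7, 21.5 and 21.0 cycles in BTBR and 25.9, 22.8 and 21.6 in C57BL/6J. Over the 6 samples, hsa-miR-192 read 19.8 to 20.6 cycles and hsa-miR-375 read 20.3 to 21.6. hsa-miR-194 had the pattern of hsa-miR-200a, with 23.8, 20.8 and 40 cycles in BTBR and 40 in all C57BL/6J samples. Wide differences between mice were not limited to the clusters. A glial list of 8 assays (miR-219, miR-338, miR-143 and miR-145) summed to 1.37, 32.8 and 116 in BTBR and 391, 328 and 602 in C57BL/6J. In that list, hsa-miR-145 read 40, 16.5 and 15.3 cycles in BTBR and 14.0, 13.9 and 12.7 in C57BL/6J. Olfactory tissue has no marker on these lists other than the clusters themselves, and its part was not tested.

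**Figure D5:**
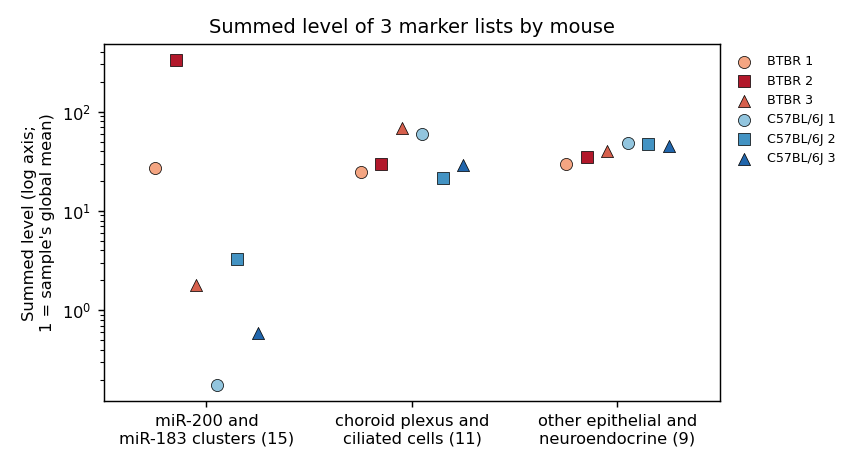
Summed level of 3 lists of assays (x axis, number of assays in brackets) in each mouse, relative to the global mean of the sample (y axis, log scale). The cluster assays of BTBR replicate 2 reach 329, far above the other mice, while the choroid plexus and epithelial lists lie between 21.4 and 67.7 in every mouse. A glial list, not drawn, ran from 1.37 in BTBR replicate 1 to 602 in C57BL/6J replicate 3.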

How the data were processed

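The deposited raw table holds cycle thresholds of 750 assays, up to 40 (undetermined). Column-purified RNA (100 ng, integrity number 9) went through pre-amplification to a QuantStudio 12K Flex, per the labels' protocols. Thresholds in the authors' normalized table (306 assays) are quantile-normalized, per the file headers. The authors' deposited fold table gives, per the file headers, the mean thresholds, their log2 difference, the ratio, a score (their test statistic), and raw and adjusted p-values. The sources used here do not give software, threshold settings or array layout. Depth does not apply to thresholds, so precision rests on 1 value per assay and 3 mice per strain.

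Members, marker lists and tests were chosen with earlier results of these data known. Named assays are all 15 members, the 3 non-members nearest to each member with 6 values, seed mates, and list members by count. Other assays were named after their values were seen. These are the neuronal assays, hsa-miR-145, hsa-miR-192, hsa-miR-194, hsa-miR-203, hsa-miR-205, hsa-miR-375, mmu-miR-211 and the choroid assays not detected in all 6 samples. Raw values of 40 or under 10 were treated as undetermined. Assays with at least 2 values in each strain were tested with limma 3.58.1 (R 4.3.3), strain as the single term, Benjamini-Hochberg adjustment over all assays tested and a threshold of 0.05; the test was checked on simulated data. Leave-out and block fits on the global mean scale, and the BTBR-only counts without 1 mouse, were added after seeing the data. The labels call the cortices separate replicates, and 1 mouse was 1 sample.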

Additional observations from a re-analysis of the deposited data

How the results depend on the processing

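The count of assays past the threshold over the panel, 85 on the authors' values, was 0 with raw thresholds on each of 5 scales (global mean, global mean within each pool, global median, endogenous control spots and no centring; limma, with 52 to 83 assays at an unadjusted p under 0.05) and 2 when the authors' normalized values were centred on the median of each sample. Leaving out 1 mouse at a time gave 0 to 101 on the authors' values and 0 to 57 on the global mean scale. On the authors' values it was 0 without BTBR replicate 1 or C57BL/6J replicate 3 (limma, 89 and 99 with an unadjusted p under 0.05), 8 without BTBR replicate 2 and 3 without C57BL/6J replicate 2. The sign of hsa-miR-183, -0.78 on the authors' values, turned to 0.28 with the global mean, 0.23 within pools, 0.98 with no centring and 0.33 with sample medians. That of mmu-miR-182, 3.42, turned to -1.97 with 40 kept as a value and to -0.091 with late readings kept. Without 1 mouse at a time, hsa-miR-183# ranged from -1.64 to 1.31 on the authors' values and from -0.081 to 2.75 after global mean centring. For hsa-miR-200c the range was -0.077 to 2.19 on the authors' values. mmu-miR-182 could not be tested there without BTBR replicate 1 or 2. Detected BTBR cells among the cluster assays numbered 25 of 45 in the raw table and 14 in the authors' normalized table, which holds fewer of the assays (18 and 14 in C57BL/6J). Across the 237 assays with 6 values, deviations from the strain means correlated at 0.02, 0.41 and -0.10 for same-numbered mice. Between mice of different numbers the correlations ran from -0.51 to 0.33, below that of the replicate 2 pair. Whether replicate numbers pair the mice was not settled by these values. With the replicate block, 32 assays passed over the panel, and mmu-miR-182 was at 3.97 (limma adjusted p = 0.045). Standard errors with the block were 0.44 cycles for hsa-miR-183, 0.82 for hsa-miR-200c, 1.45 for hsa-miR-183# and 0.51 for mmu-miR-182. Each was smaller than without the block. The causes of these changes were not tested beyond what each alternative changes by construction. With 3 mice per strain and 1 value per assay, the standard errors of the cluster assays tested limit what could be detected. On the authors' values without the block they were 1.23 to 2.17 cycles.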
